A study of Mus musculus with 2 samples.

Results

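The 10 genes described here, Vcam1, Cd34, Sdc4, Itga7, Itgb1, Cdh15, Ncam1, Calcr, Met and Dag1, encode proteins on the surface of muscle stem cells. They were taken as a named list, out of 21216 genes with counts, and all 10 were found on both plates. They were followed in single mouse muscle stem cells, sorted with FACS to 1 cell per well of 384-well plates and read with a modified CEL-Seq2 protocol, which tags the 3′ end of polyadenylated RNA. Of 457 wells, 456 were used: 121 cells cultured with 10 mM galactose, 120 with glucose at 5 mM (low glucose), 113 with glucose at 25 mM (high glucose), and 102 cells taken directly after isolation (freshly isolated). Culture lasted 96 h. All culture media held DMEM, 1 mM sodium pyruvate, fetal bovine and horse serum, chick embryo extract and bFGF, and differed in the sugar. The labels used here give no strain, genotype or age of the mice, nor how many were pooled. The label calls the freshly isolated cells quiescent; they had by then been through isolation and sorting.

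Plate 1 carried high glucose and freshly isolated cells, and plate 2 carried galactose and low glucose cells. Each condition filled 6 plate rows of its own, so condition cannot be told apart from row within a plate, or from plate across the plates. The 2 plates shared 200 of their 216 and 241 well barcodes, which the plate tells apart. Each plate is 1 deposited sample, and each condition is 1 pool of wells on it. Cells and plate rows are not replicates, so no test between conditions was run. Pools held 2035682 counts in galactose, 1734279 in low glucose, 887611 in high glucose cells and 284109 in freshly isolated cells, with medians of 14496, 13371, 6747 and 2536 counts per cell in that order. The median ratio of gene counts to counts of ERCC spike-ins, synthetic RNAs of known sequence, was 47.8, 47.7, 57.0 and 18.3 in the same order. Mitochondrial genes took a median of 1.80%, 1.88%, 1.35% and 3.24% of a cell's counts, likewise in that order; the part of depth, RNA content or this share in the results was not tested. Myod1, a myogenic transcription factor, had a count in 121 of 121, 119 of 120, 106 of 113 and 88 of 102 cells, and Pax7, the factor that defines these cells, in 64, 56, 30 and 28 of them. These numbers follow depth. With every cell thinned to 1000 counts, the shares in the same order were 51.6%, 50.1%, 47.1% and 68.2% for Myod1. For Pax7 they were 5.28%, 4.98%, 5.26% and 12.8%.

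Muscle stem cells lie between the muscle fibre and the basal lamina and are held there by adhesion proteins. On the laminin side stand the integrin made of Itga7 and Itgb1 and the dystroglycan encoded by Dag1; on the fibre side stands M-cadherin, the product of Cdh15. Vcam1, Cd34, Itga7, Sdc4 and Calcr are widely used to sort or mark resting muscle stem cells, while Met, the receptor for hepatocyte growth factor, and Calcr, the calcitonin receptor, carry signals that bear on activation and quiescence. All values below are RNA, not surface protein. Levels are given as CPM (the gene's counts scaled to the total gene counts of the pool), with an exact Poisson 95% interval, and as counts per 1000 ERCC counts. Intervals cover counting error only. The sources used here do not give the amount of ERCC RNA per well.

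The 10 genes did not move together in culture. Within plate 1, high glucose against freshly isolated cells, 8 of the 10 genes reached a mean of 50 CPM over the 2 pools. Of these, 5 were at least 1.5-fold lower in CPM (Vcam1, Sdc4, Itga7, Cdh15 and Dag1), where 20.1% of the 3848 genes at this minimum were lower. Vcam1 and Cdh15 were above 50 CPM only in freshly isolated cells and so reached the minimum only through the pool where they were high, which favours a lower call; Sdc4, Itga7 and Dag1 were above it in both pools. Cd34 and Itgb1 were at least 1.5-fold higher, where 33.9% of all genes were higher, and Met lay within the limit. The median log2 ratio was -1.21 over the 8 genes and 0.25 over all 3848. Relative to ERCC counts, 4 were higher (Cd34, Itga7, Itgb1 and Met), against 88.2% of all genes, and 2 were lower (Vcam1 and Sdc4), against 3.95% of all genes. The median on this scale was 0.40 over the 8 genes and 1.87 over all genes. With TMM or median-of-ratios scaling Itgb1 left the higher group, which gave 1 higher and 5 lower.

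**Figure D1:**
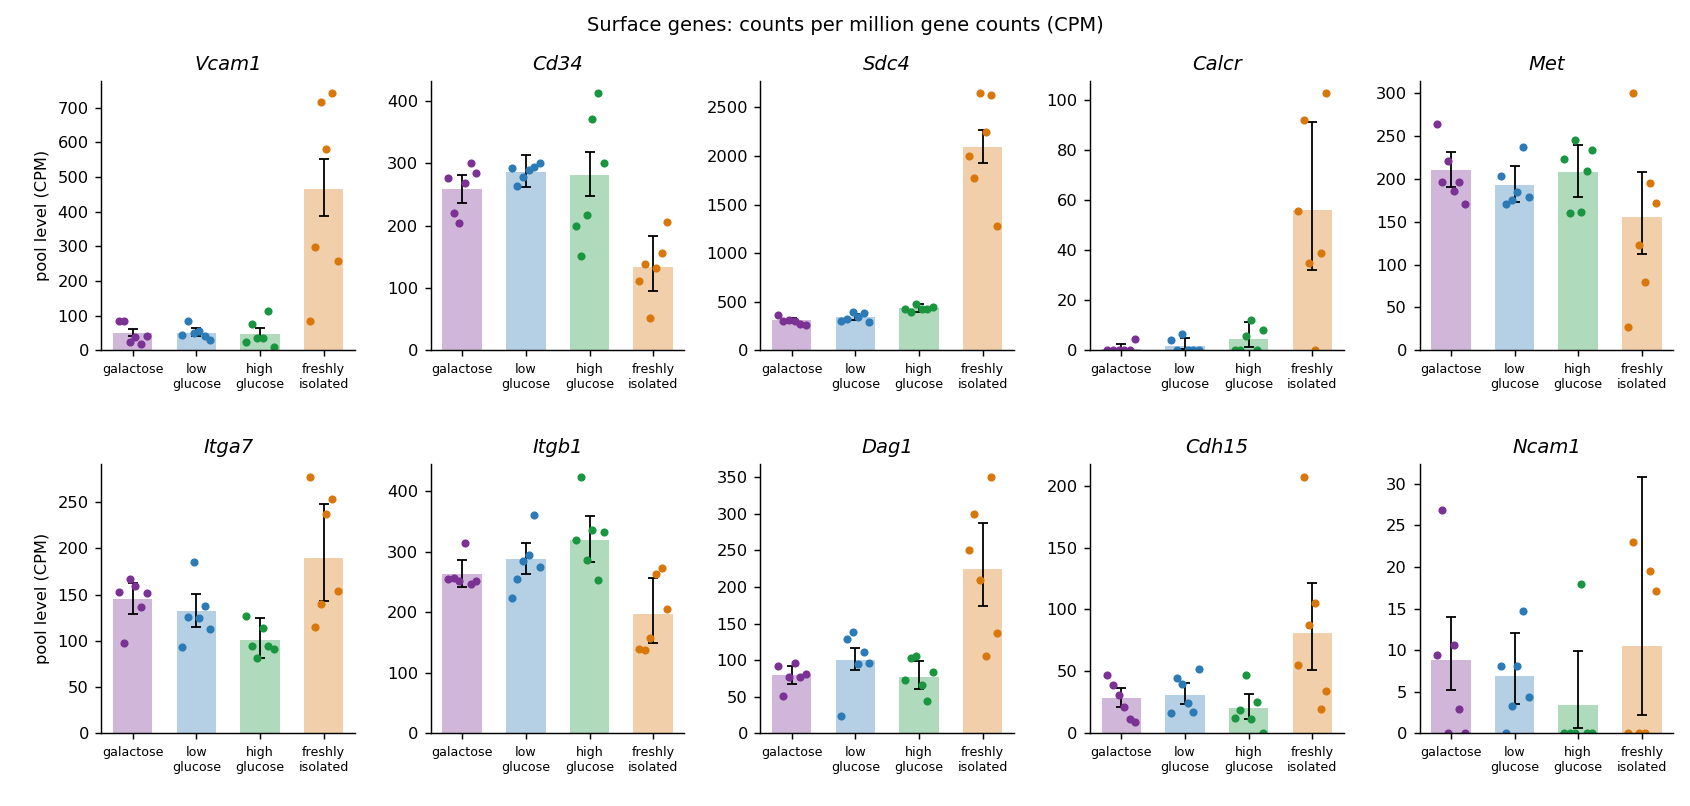
Level of each surface gene in CPM. Bars are the pools of galactose, low glucose, high glucose and freshly isolated cells, black bars their exact Poisson 95% intervals, and points the 6 plate rows of each condition. The high glucose plate rows of Sdc4 lie between 396 and 479 CPM and the freshly isolated ones between 1284 and 2644 CPM.

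Vcam1 (ENSMUSG00000027962), an immunoglobulin-family adhesion protein that binds integrins, was 50.1 CPM in galactose, 51.3 in low glucose, 48.4 in high glucose cells and 465 in freshly isolated cells. The 3 cultures lay within each other's counting intervals, and freshly isolated cells stood far above them. The ratio of high glucose over freshly isolated was 0.104 (95% interval 0.072 to 0.148). Low glucose gave 0.110 and galactose 0.108 against the same freshly isolated cells, across plates. On the ERCC scale Vcam1 was 2.60, 2.59, 2.92 and 9.12 in the order galactose, low glucose, high glucose and freshly isolated, so it was lower in culture on this scale too (ratio 0.320 for high glucose, 0.221 to 0.454). High glucose rows lay between 8.33 and 114 CPM. The freshly isolated rows were uneven, between 83.3 CPM in row A, with a count in 3 of 16 cells, and 741 CPM in row E, with a count in 10 of 17 cells. The 2 sets overlapped through freshly isolated row A and high glucose row K.

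Sdc4 (ENSMUSG00000017009), syndecan-4, a heparan sulphate proteoglycan that presents growth factors to their receptors, was 308 CPM in galactose, 344 in low glucose, 436 in high glucose cells and 2094 in freshly isolated cells. It was the only 1 of the 10 whose plate rows in CPM kept apart from the freshly isolated rows in all 3 cultures. They ran at 261 to 367, 287 to 395 and 396 to 479 CPM for galactose, low glucose and high glucose, against 1284 to 2644 CPM. How many of all genes keep their rows apart like this was not counted, here or for the genes below. Its ratio of high glucose over freshly isolated was 0.208 (0.183 to 0.237) in CPM and 0.639 (0.561 to 0.727) per 1000 ERCC counts. On the ERCC scale the high glucose rows, 18.5 to 32.2, met the freshly isolated rows, 31.9 to 51.5. The order galactose, low glucose, high glucose, freshly isolated ran upward on both scales, although the galactose and low glucose intervals overlapped.

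Cd34 (ENSMUSG00000016494), a sialomucin and a long-used marker of resting muscle stem cells, went the other way. It was 258 CPM in galactose, 287 in low glucose, 281 in high glucose cells and 134 in freshly isolated cells. Its high glucose level was 2.10 times (1.49 to 3.03) that of freshly isolated cells in CPM and 6.44 times (4.56 to 9.31) per 1000 ERCC counts. High glucose rows, 151 to 412 CPM, overlapped freshly isolated rows, 52.5 to 205 CPM, while low glucose rows, 263 to 300.4 CPM, lay above them all. Measured against ERCC counts, no row of any culture overlapped the freshly isolated rows, with 9.91 to 16.0, 11.8 to 16.8 and 7.06 to 26.5 in galactose, low glucose and high glucose, against 0.970 to 5.18. On this scale 83.4%, 82.6% and 88.2% of all genes at the minimum were at least 1.5-fold higher in these cultures, in the same order. The 3 cultures did not differ beyond their counting intervals in CPM.

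Calcr (ENSMUSG00000023964), the calcitonin receptor, which keeps muscle stem cells quiescent in mice, rested on few counts: 1 in galactose, 3 in low glucose, 4 in high glucose cells and 16 in freshly isolated cells. These made 0.491, 1.73, 4.51 and 56.3 CPM. High glucose over freshly isolated was 0.080 (0.019 to 0.248) in CPM and 0.246 (0.060 to 0.761) per 1000 ERCC counts, with too few counts to enter the list of 8. Calcr had a count in 0.826% of galactose, 2.50% of low glucose, 3.54% of high glucose and 12.7% of freshly isolated cells. Among endothelial genes, which muscle stem cells should lack, Pecam1 had one in 0.826%, 3.33%, 11.5% and 5.88% in the same order, Kdr in 0.826%, 0.833%, 1.77% and 4.90%, and Flt1 in 0%, 0.833%, 2.65% and 5.88%. The share of Calcr lay within the range of these 3 genes in each culture, where it cannot be told apart from background. In freshly isolated cells it lay above these 3 genes. Some markers of other cell types had larger shares there (Col3a1 70.6%, Dpt 38.2%, Acta2 29.4% and Tagln 24.5%). The other such markers counted on both plates had smaller ones, at most 7.84% (Atp2a1). Whether Calcr stands above background in freshly isolated cells was not tested.

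Met (ENSMUSG00000009376), the receptor that signals the arrival of hepatocyte growth factor, was 210.2 CPM in galactose, 193 in low glucose, 207 in high glucose cells and 155 in freshly isolated cells. The ratio of Met in high glucose over freshly isolated was 1.34 (0.959 to 1.90) in CPM, an interval that holds 1, and the intervals of all 4 levels overlapped. Without plate row B of the freshly isolated cells, where Met was 299 CPM, the log2 ratio was 0.69 and past the limit. Against ERCC counts the ratio was 4.11 (2.94 to 5.84), and rows of high glucose (7.51 to 17.0) lay above rows of freshly isolated cells (0.442 to 5.65).

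The laminin receptors did not share a direction. Itga7 (ENSMUSG00000025348), the alpha subunit that defines the laminin-binding integrin of muscle, was 145 CPM in galactose, 132 in low glucose, 101 in high glucose cells and 190.1 in freshly isolated cells. Its partner Itgb1 (ENSMUSG00000025809), the beta subunit shared by many integrins, was 264, 288, 319 and 197 CPM in the same order. High glucose over freshly isolated was 0.533 (0.377 to 0.762) for Itga7 and 1.62 (1.21 to 2.20) for Itgb1, and the row ranges of both overlapped in CPM. On the ERCC scale both were above freshly isolated cells, at 1.64 (1.16 to 2.34) for Itga7 and 4.96 (3.71 to 6.73) for Itgb1. The direction of Itga7 thus turned with the scale. For both genes the intervals of conditions next to each other in order of CPM overlapped. Dag1 (ENSMUSG00000039952), whose product is cut into alpha and beta dystroglycan, was 79.6 CPM in galactose, 101 in low glucose, 77.7 in high glucose cells and 225 in freshly isolated cells. The high glucose rows, 44.3 to 105.3 CPM, ended just under the lowest freshly isolated row, at 105.6 CPM, and the intervals of the 3 cultures overlapped. The ratio of Dag1 was 0.345 (0.242 to 0.493) in CPM and 1.06 (0.743 to 1.51) per 1000 ERCC counts.

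Cdh15 (ENSMUSG00000031962), M-cadherin, was 28.5 CPM in galactose, 31.1 in low glucose, 20.3 in high glucose cells and 81.0 in freshly isolated cells. Its ratio, high glucose over freshly isolated, was 0.250 (0.127 to 0.485) in CPM on 18 against 23 counts, and 0.769 (0.391 to 1.49) per 1000 ERCC counts. Its freshly isolated rows spread from 19.5 to 207 CPM and overlapped all cultures, whose own intervals overlapped. Ncam1 (ENSMUSG00000039542), a cell adhesion protein of myoblasts and nerve, had 18 counts in galactose, 12 in low glucose, 3 in high glucose cells and 3 in freshly isolated cells, or 8.84, 6.92, 3.38 and 10.6 CPM. No ratio to freshly isolated cells is read from it within plate 1, since both pools held 3 counts.

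Promoters are shown for the gene whose plate rows kept apart in CPM in every culture (Sdc4), for the one that was higher in high glucose cells at every scaling tried (Cd34) and for the cadherin (Cdh15). In CPM, Sdc4 and Cdh15 were lower in high glucose than in freshly isolated cells, and Cd34 was higher. Whether Myod1 has a part in this was not tested. Capitals mark CANNTG, the E-box that Myod1 and its relatives can bind; it reads the same on both strands. Sequences are from RefSeq on GRCm38.p6 and run from 250 bases before to 50 bases after a gene start, in the direction of the gene. Entries were matched for 7 of the 10 genes, and Vcam1, Itga7 and Ncam1 are only named. The Sdc4 promoter is at chr2:164443139-164443438 on the minus strand, that of Cd34 at chr1:194938571-194938870 on the plus strand, and that of Cdh15 at chr8:122848124-122848423 on the plus strand.
Sdc4: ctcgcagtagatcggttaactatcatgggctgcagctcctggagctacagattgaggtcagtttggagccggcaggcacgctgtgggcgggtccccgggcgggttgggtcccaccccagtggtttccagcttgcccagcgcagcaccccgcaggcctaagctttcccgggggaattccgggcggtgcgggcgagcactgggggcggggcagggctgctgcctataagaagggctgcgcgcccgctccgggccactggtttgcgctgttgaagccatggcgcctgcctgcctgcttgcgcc
Cd34: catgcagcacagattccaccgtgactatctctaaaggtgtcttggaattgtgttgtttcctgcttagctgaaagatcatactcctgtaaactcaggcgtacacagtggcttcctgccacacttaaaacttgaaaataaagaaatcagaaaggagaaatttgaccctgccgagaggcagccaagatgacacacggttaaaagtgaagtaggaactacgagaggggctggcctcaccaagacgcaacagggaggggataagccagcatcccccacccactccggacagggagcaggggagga
Cdh15: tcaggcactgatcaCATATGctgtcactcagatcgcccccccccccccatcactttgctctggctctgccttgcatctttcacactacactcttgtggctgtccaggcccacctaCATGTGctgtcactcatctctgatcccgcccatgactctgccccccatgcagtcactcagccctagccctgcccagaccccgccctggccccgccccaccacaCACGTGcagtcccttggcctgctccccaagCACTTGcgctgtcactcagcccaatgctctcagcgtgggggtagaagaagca

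The Cdh15 window held 4 E-boxes, at -236, -135, -32 and -2 from the gene start, and 6.49% of the 32851 RefSeq promoter windows held 4 or more. The Sdc4 and Cd34 windows held none, as did that of Itgb1, and 72.3% of all windows held at least 1. The window of Met held 2, and the 2 windows each of Dag1 and Calcr held at most 1. The AP-1 motif TGANTCA, also searched on both strands, was found once in Met and in none of the other 8 windows of these genes, against 7.81% of all windows. A match is a description of letters and not a bound site.

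**Figure D2:**
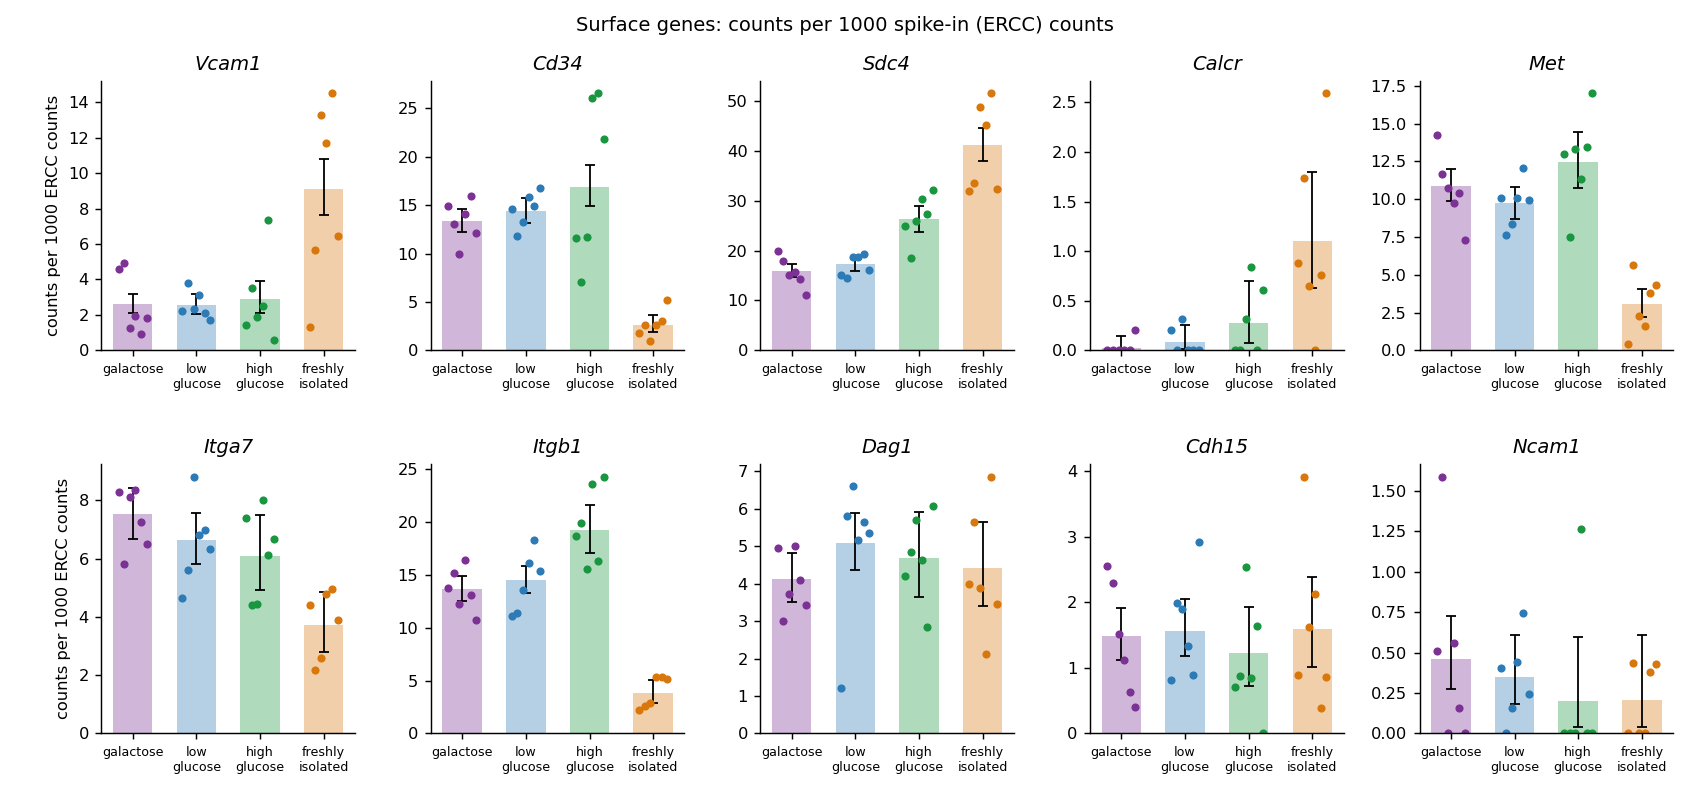
Counts of each surface gene per 1000 ERCC counts. Bars are pools of galactose, low glucose, high glucose and freshly isolated cells with exact Poisson 95% intervals of the gene counts, and points are plate rows. On this scale freshly isolated cells are lowest for Cd34, Itgb1, Met and Itga7 and highest for Vcam1 and Sdc4. They are also highest for Calcr, on few counts, and by a narrow margin for Cdh15.

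**Figure D3:**
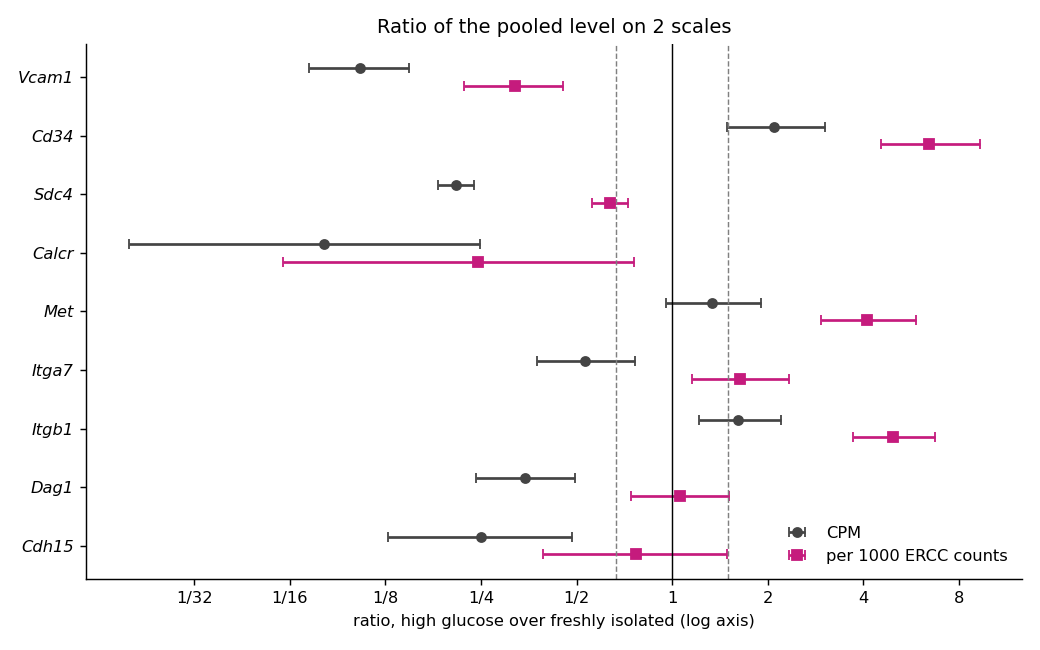
Ratio of high glucose over freshly isolated for 9 of the genes (Ncam1 had 3 counts in each pool), on a log axis, in CPM and per 1000 ERCC counts, with exact 95% counting intervals; dashed lines mark 1.5-fold. Vcam1, Sdc4, Calcr and Cdh15 lie below 1 on both scales, although the Cdh15 interval reaches past 1 per 1000 ERCC counts, and Cd34, Itgb1 and Met lie above 1 on both, although the Met interval holds 1 in CPM.

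The sugars were also compared with each other. Galactose over low glucose, within plate 2, compares cells in a sugar that yields little glycolytic energy with cells in modest glucose. Of 7 genes at the minimum, none was 1.5-fold higher and none 1.5-fold lower in CPM, where 0.125% of 3997 genes were higher and 0.175% lower, so a count of 0 lies near the share over all genes. The pool ratios of the 7 ran from 0.789 for Dag1 (0.633 to 0.982) to 1.10 for Itga7 (0.920 to 1.31). Per 1000 ERCC counts none passed either (0.275% of all genes higher, 0.15% lower), and the Dag1 interval reached 1 (0.812, 0.652 to 1.01). The Dag1 rows, 50.7 to 95.8 CPM in galactose and 24.4 to 139 CPM in low glucose, overlapped.

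Low glucose over high glucose spans the plates. None of 6 genes was past 1.5-fold in CPM, where 8.83% of 4067 genes were higher and 9.47% lower, also near the count of 0. Sdc4 was 0.790 (0.694 to 0.900) in CPM and 0.660 (0.580 to 0.752) per 1000 ERCC counts, which is past the limit, as for 22% of all genes on that scale; no surface gene was past it upward, as 2.7% of all genes were. Itga7 was 1.30 (1.02 to 1.68) in CPM and 1.09 (0.850 to 1.41) per 1000 ERCC counts. Galactose over high glucose, also across plates, had none of 6 past the limit in CPM, where 10.7% of 4096 genes were higher and 11.2% lower. There Sdc4 was 0.706 (0.621 to 0.804) in CPM and 0.609 (0.535 to 0.693) per 1000 ERCC counts, where 20.1% of all genes were lower and 4.13% higher. Galactose rows of Sdc4, 261 to 367 CPM, lay wholly below high glucose rows, 396 to 479 CPM. Itga7 was 1.43 (1.13 to 1.83) in CPM for this pair, and it passed the limit with TMM scaling, without galactose row H or without high glucose row G.

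Low glucose and galactose were also set against the freshly isolated cells. These ratios use the same freshly isolated cells as the one for high glucose, and they span the plates. In low glucose 1 of 8 genes was higher (Cd34; 37.4% of 3838 genes) and 4 were lower (Vcam1, Sdc4, Cdh15 and Dag1; 20.7%). In galactose the same gene was higher (38.1% of 3850 genes) and the same 4 were lower (20.9%). Cdh15 again reached the minimum only through the freshly isolated pool. Itga7 stood at 0.695 (0.514 to 0.953) in low glucose cells and 0.762 (0.569 to 1.04) in galactose. Itgb1, at 1.46 (1.11 to 1.96) in low glucose, passed the limit without low glucose row A or freshly isolated row D or E. Met passed it in galactose without freshly isolated row B, where its log2 ratio was 0.71. In counts per 1000 ERCC counts both cultures had 4 higher (Cd34, Itga7, Itgb1 and Met; 82.6% of all genes in low glucose, 83.4% in galactose) and 2 lower (Vcam1 and Sdc4; 6.33% and 6.31%).

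The share of cells with a count follows depth, so each cell was also thinned to 1000 counts, and shares are the expectation over all draws with an exact binomial 95% interval. After thinning, Sdc4 had a count in 26.1% of galactose cells, 28.7% of low glucose cells, 33.6% of high glucose cells (25.0 to 43.2) and 78.7% of freshly isolated cells (69.5 to 86.2). Vcam1 had one in 3.59%, 4.44%, 4.20% (1.31 to 9.75) and 27.0% (18.7 to 36.7) in the same order. Dag1 followed, with 7.38%, 8.59%, 8.11% (3.79 to 14.8) and 21.2% (13.7 to 30.4). For Sdc4 and Vcam1 the freshly isolated interval lay above those of all 3 cultures, and for Dag1 it overlapped those of low glucose and high glucose. Cd34 (17.5% in high glucose against 12.1% in freshly isolated cells), Met (17.6% against 13.6%), Itgb1 (27.4% against 18.5%) and Itga7 (10.9% against 16.4%) had overlapping intervals.

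As deposited, deeper cells showed more of the genes. Itgb1 had a count in 82.3% of high glucose cells and 40.2% of freshly isolated cells, Met in 61.1% and 32.4%, and Cd34 in 55.8% and 29.4%, in cells whose median depth was 6747 against 2536 counts. Vcam1 kept its order within plate 1, with 25.7% of high glucose cells and 47.1% of freshly isolated cells. Sdc4 was found in most cells of every condition, at 93.4% in galactose, 91.7% in low glucose, 82.3% in high glucose cells and 94.1% in freshly isolated cells.

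**Figure D4:**
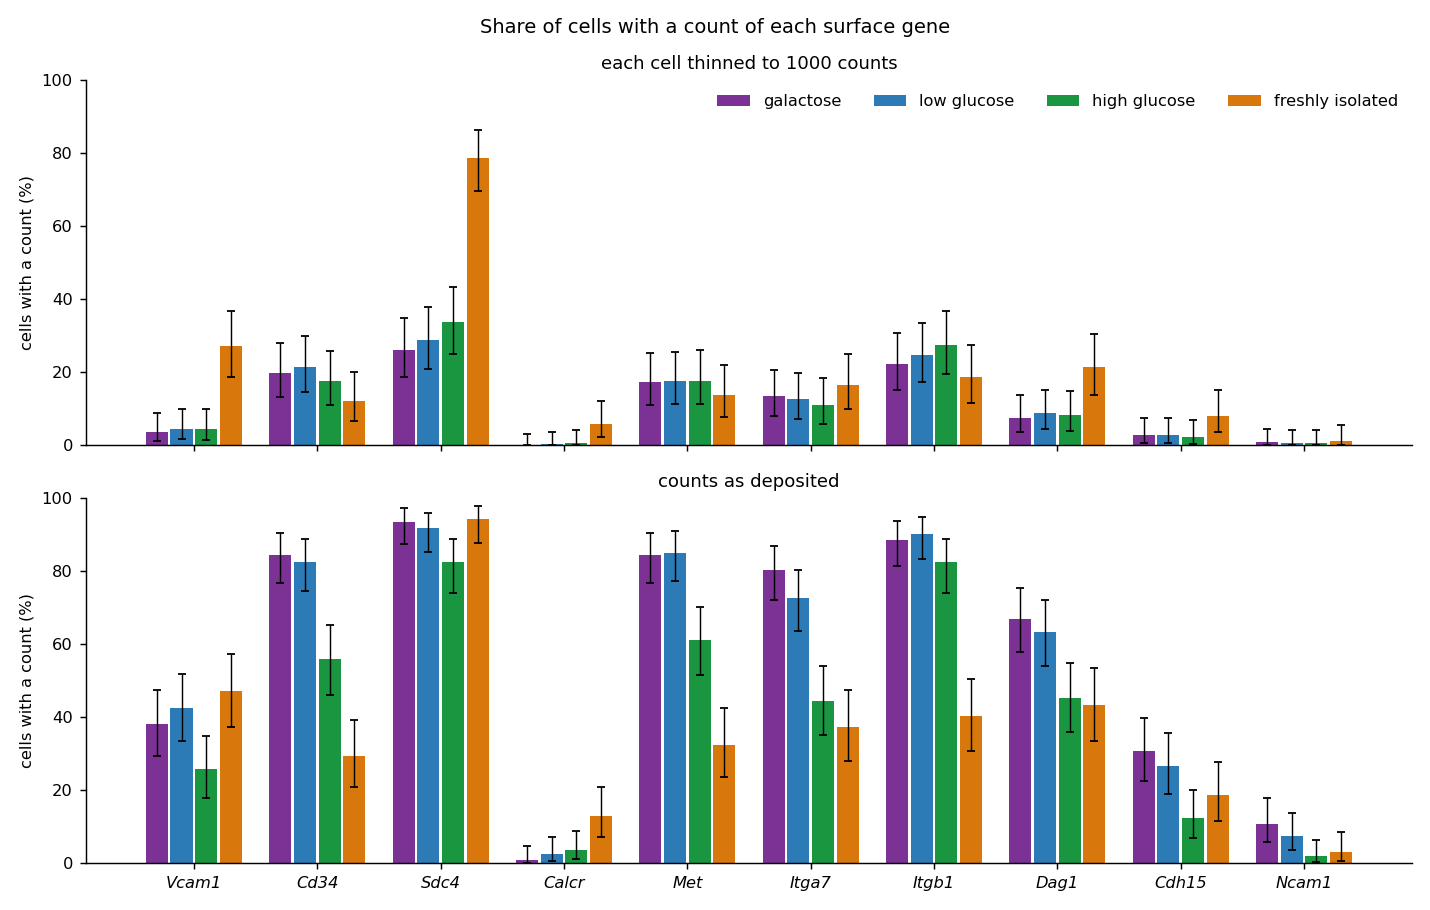
Percent of cells with a count of each gene, after thinning every cell to 1000 counts (top) and as deposited (bottom), for galactose, low glucose, high glucose and freshly isolated cells, with exact binomial 95% intervals. After thinning, Sdc4 stands at 33.6% in high glucose against 78.7% in freshly isolated cells, and as deposited at 82.3% against 94.1%.

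Within a condition the spread of counts over cells was also described. At 1000 counts per cell, the variance of Vcam1 counts over cells was 1.05 times their mean in galactose, 1.05 in low glucose, 1.03 in high glucose cells and 2.65 in freshly isolated cells, where random counting alone gives about 1. That of Sdc4 was 1.81 times its mean in freshly isolated cells. The other 8 genes had 0.98 to 1.19 in freshly isolated cells. The mean of Vcam1 at this depth was 0.037, 0.047, 0.043 and 0.493 counts in the order given, and that of Sdc4 in freshly isolated cells was 2.16. At a mean far below 1 this ratio stays near 1 even where cells differ. It is therefore not compared between conditions or genes. The highest count of Vcam1 in a cell was 12 in galactose, 8 in low glucose, 7 in high glucose cells and 13 in freshly isolated cells, and the median cell had 0 in each. Part of the unevenness of Vcam1 in freshly isolated cells ran along plate rows, from 3 of 16 cells with a count in row A to 14 of 19 in row C. The median high glucose cell had 323 CPM of Sdc4, against 1899 CPM for the median freshly isolated cell.

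**Figure D5:**
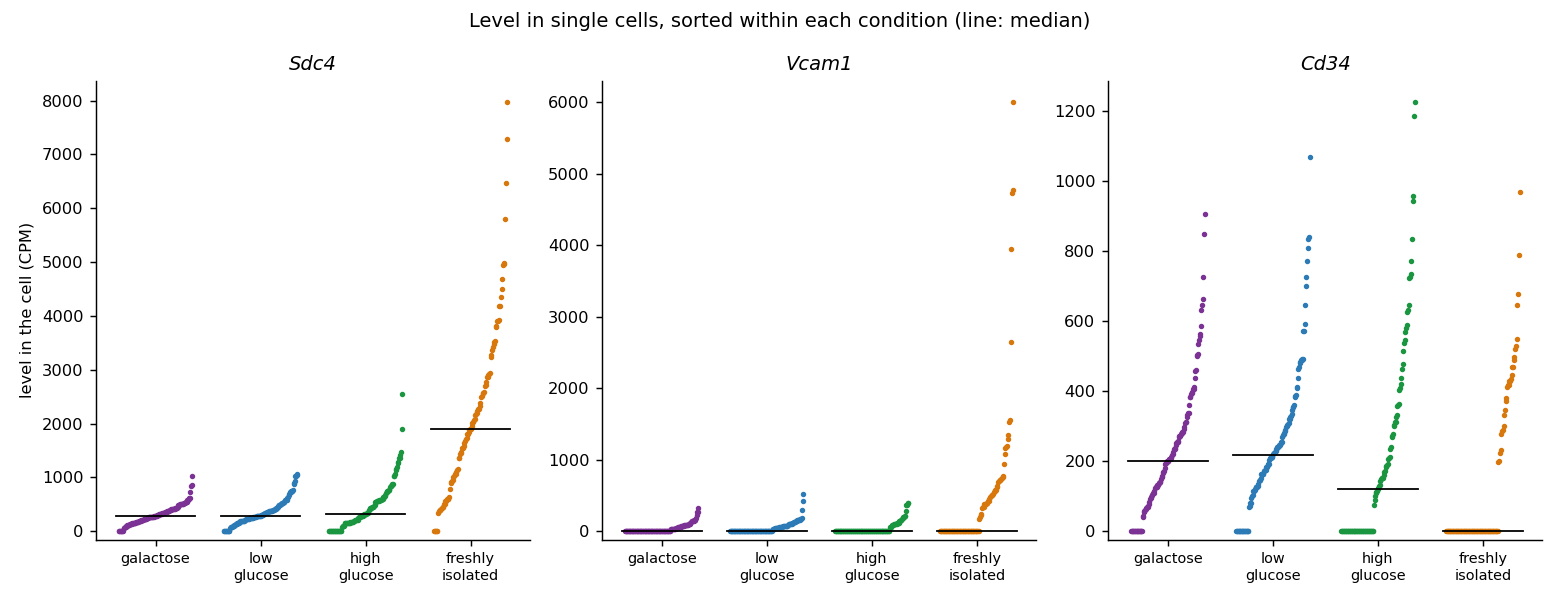
Level of Sdc4, Vcam1 and Cd34 in single cells in CPM, sorted within galactose, low glucose, high glucose and freshly isolated; each point is a cell and black lines are medians. In freshly isolated cells Vcam1 reaches 5999 CPM with a median of 0, and Sdc4 is spread over nearly all cells around a median of 1899 CPM.

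At equal depth, cells of the freshly isolated pool had a count of more of the 10 genes on average. Thinned to 1000 counts, a cell had a count of 1.13 of them on average in galactose, 1.21 in low glucose, 1.22 in high glucose cells and 2.02 in freshly isolated cells. The share of cells with none was 28.9%, 26.0%, 26.5% and 5.60%, and that with at least 2 was 31.2%, 34.8%, 35.4% and 67.2%. Sdc4 and Vcam1 had the widest gaps in thinned share between freshly isolated and high glucose cells among the 10. Cd34, Met and Itgb1 went the other way, with a lower share in freshly isolated cells. The number of all genes per cell at this depth was not counted, so the higher mean is not read as particular to the 10. Without thinning the order of the conditions turned, with means of 5.78, 5.64, 4.14 and 3.58.

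Pairs of the genes shared cells about as often as the product of their single shares gives. Over pairs whose product was at least 5 cells at 1000 counts, the median of observed over product was 0.987 in galactose (4 pairs), 0.992 in low glucose (5 pairs), 1.05 in high glucose (5 pairs) and 0.999 in freshly isolated cells (9 pairs). Vcam1 and Sdc4, 2 genes high in freshly isolated cells, met in 22.8 of 102 cells against 21.7 from the product. As deposited, where depth makes genes meet, Vcam1 and Cd34 met in 21 high glucose cells against 16.2 from the product (ratio 1.30), and in 10 freshly isolated cells against 14.1 (ratio 0.708). Itgb1 and Met met in 20 freshly isolated cells against 13.3 (ratio 1.51). These counts are small and no test was made of them.

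Myod1 and the surface genes likewise met about as often as their shares give. Thinned, Sdc4 and Myod1 met in 18.8 of 112 high glucose cells against 17.8 from the product, and in 55.7 of 102 freshly isolated cells against 54.8. Vcam1 and Myod1 met in 19.9 freshly isolated cells against 18.8. With Pax7 the numbers were smaller and less even. In freshly isolated cells Vcam1 and Pax7 met in 3.47 against 3.54, and Sdc4 and Pax7 in 9.51 against 10.3. In high glucose cells Sdc4 and Pax7 met in 2.61 against 1.98, and Met and Pax7 in 1.64 against 1.04. Cdh15, Ncam1 and Calcr met Pax7 there in 0.057, 0 and 0 cells against 0.126, 0.027 and 0.022 from the product. The other surface genes met it more often than the product, which was at most 1.98 cells. These numbers are too small for either direction to be read.

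RNA of other cell types was looked for with lists of marker genes, and its part in the results was not tested. On plate 1 the summed level of the 3 fibro-adipogenic markers that were counted there was 135 CPM in high glucose cells, against 1091 CPM in freshly isolated cells, mostly Col3a1 (126 and 873 CPM). The 7 smooth muscle and pericyte markers summed to 212 and 412 CPM and the 8 endothelial markers to 38.3 and 88.0 CPM. Wells with counts of at least 3 markers of 1 type numbered 3 among high glucose cells, against 6 among freshly isolated cells. Without them the log2 ratio of high glucose over freshly isolated was -3.29 for Vcam1, -2.33 for Sdc4 and 1.15 for Cd34, against -3.26, -2.26 and 1.07 with them. This step says little about RNA of other cells. A fibro-adipogenic well had to hold all 3 markers to be left out, and with 2 glial markers on this plate no glial well could be. Only 3 of the 82 freshly isolated cells with a fibro-adipogenic marker count were left out for these markers. Vcam1 was 671 CPM in the 20 freshly isolated cells with no fibro-adipogenic marker count and 423 CPM in the 82 others. Itga7 went the other way there, at 105 and 207 CPM. In culture Vcam1 was lower without such a count than with it. It was 39.3 against 61.5 CPM in galactose, 37.7 against 66.9 in low glucose and 38.7 against 53.7 in high glucose cells. The cause of these differences was not tested.

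Genes of the pathways around these proteins were counted list by list, for high glucose over freshly isolated, at the same minimum of 50 CPM and 1.5-fold limit, beside 33.9% higher and 20.1% lower over all genes in CPM and 88.2% higher and 3.95% lower per 1000 ERCC counts. Genes under 50 CPM in high glucose reached the minimum only through the freshly isolated pool, which favours a lower call: Dmd, Sgce, Tln2, Vcl, Sulf1, Ext1, Jup, Notch3, Tenm4 and Fgfr4. Counts and medians over these lists are a description. In the dystroglycan complex, which ties dystroglycan to actin inside the cell, 4 of 14 genes looked up reached the minimum and were lower, Utrn and Sntb2 with more than 50 CPM in both pools. Dmd, dystrophin, was 13.5 against 158 CPM (ratio 0.085, 0.041 to 0.164), and 0.814 against 3.11 per 1000 ERCC counts. Utrn, its relative utrophin, was 63.1 against 162 CPM, yet 3.80 against 3.18 per 1000 ERCC counts. Relative to ERCC counts 1 of the 4 was lower, beside 3.95% of all genes. Of the linkers of integrins to actin, 8 of 12 reached the minimum, with 4 lower (Tln2, Vcl, Fermt2 and Zyx) and 1 higher (Tns3); relative to ERCC counts 2 were lower and 6 higher, beside 3.95% and 88.2% of all genes. Vcl, vinculin, was 27.0 against 176 CPM (ratio 0.154, 0.090 to 0.255), and Tns3, a tensin, was 375 against 236 CPM (ratio 1.59, 1.22 to 2.10).

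Among syndecans, glypicans and enzymes of heparan sulphate, 3 of 14 reached the minimum and were lower in CPM. Of these, Ndst1 had more than 50 CPM in both pools (123 in high glucose cells, against 246 in freshly isolated cells). Per 1000 ERCC counts 1 of the 3 was lower and 2 were higher, beside 3.95% and 88.2% of all genes. Sulf1, which takes sulphate off heparan chains such as those of Sdc4, was 12.4 CPM in high glucose against 253 CPM in freshly isolated cells (ratio 0.049, 0.023 to 0.093). Sulf2, a similar enzyme, was 55.2 against 38.7 CPM and under the minimum. Of cadherins and catenins 3 of 8 reached it, with Ctnnd1 (137 against 299 CPM) and Jup (20.3 against 84.5 CPM) lower. On the ERCC scale 1 of the 3 was higher and none was lower. Of the adaptors of Met 2 of 7 reached the minimum, with Grb2 at 126 against 194 CPM, and both were higher on the ERCC scale. No partner of Calcr reached the minimum. Integrin subunits, laminin chains and the relatives of Vcam1, Cd34 and Ncam1 had 1 gene each at the minimum. None of these was past the limit in CPM, and each was higher on the ERCC scale.

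Of 16 other surface proteins reported on muscle stem cells, 9 reached the minimum and 6 were lower, with a median log2 ratio of -2.14 over the 9. Notch3, a Notch receptor, was 19.2 CPM in high glucose against 204 CPM in freshly isolated cells, and Cd82, a tetraspanin, 71.0 against 317 CPM. Cav1, caveolin, was 117 against 679 CPM. Cd44, a hyaluronan receptor, was 825 against 869 CPM (ratio 0.949, 0.820 to 1.10), and Cd63, another tetraspanin, 1497 against 1246 CPM (ratio 1.20). Scaled to ERCC counts 4 of the 9 were lower and 3 were higher, beside 3.95% and 88.2% of all genes. Between galactose and low glucose none of the genes in any of these lists that reached the minimum passed 1.5-fold, where 0.125% of all genes were higher and 0.175% lower; Cd44 was at 1112 against 1134 CPM and Tln1, a talin, at 291 against 268 CPM.

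The genes most like each member were found by Pearson's r of log2(CPM + 10) over the 24 plate rows, among 3956 genes; rows share their condition and plate, so r mainly follows the condition. Sdc4 was nearest to Bmpr2 (r = 0.978), and Slc39a14 (0.973) was also among its nearest genes; both were high in freshly isolated cells. Vcam1 was nearest to Sfpq (0.876), Mafk (0.871) and Fosl2 (0.864), and Dag1 to Ptpn12 (0.861). Cd34 was nearest to Dnaja3 (0.894), at 118, 98.0, 91.3 and 24.6 CPM in the order galactose, low glucose, high glucose and freshly isolated. Met was nearest to Got2 (0.917) and Ccdc47 (0.917), Itga7 to Serpinh1 (0.831) and Itgb1 to Dhx36 (0.823). Cdh15, Ncam1 and Calcr were under the minimum level for this search.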

How the data were processed

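The authors deposited whole-number counts for each gene in each well, not normalized. The sources used here do not give the aligner, counter or genome build, or whether counts were collapsed by UMI. Per the submitters' processing notes, edgeR was used, with no version or role. Conditions came from the deposited well sheet. Wells with at least 500 counts and 250 genes were kept, which dropped 1 high glucose well with 8 counts. Symbols came from GENCODE M21 for 21132 of 21216 identifiers (99.6%). No doublet caller was run. Counts of a condition were summed, scaled to CPM or to summed ERCC counts, and compared as ratios with exact conditional (Clopper-Pearson) 95% intervals. Log2 ratios over lists used a pseudocount of 1 CPM. Thinned shares are exact expectations over all draws, and 1 high glucose cell under 1000 counts was left out. Plate rows were pooled the same way to show technical spread. The steps were tested on simulated data.

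The 10 genes, the partner and marker lists and the settings were chosen with earlier results of these data known. Named partners were those the list rule gave, up to 2 by counts and 2 by interval, and the others were chosen after their values were seen. One gene among those most like Sdc4 is not reported here. Alternatives were TMM (edgeR 4.0.16) and median-of-ratios (DESeq2 1.42.0) factors, ERCC totals, equal weight per cell, other minimums, thinning, and leaving out wells or plate rows. For levels, the expected thinned values are those of equal weight per cell, apart from 1 high glucose cell left out. Those 2 settings are therefore not separate checks of the ratios. Python 3.11.15, SciPy 1.17.1 and R 4.3.3 were used. A single count is 1.13 CPM in high glucose cells and 3.52 CPM in freshly isolated cells, where counting limits precision most.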

Additional observations from a re-analysis of the deposited data

How the results depend on the processing

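With 1 pool of wells per condition, no setting carries a test. No paired analysis was possible because each condition was 1 pool of wells and the labels give no replicate numbers. Scaling to ERCC totals changed most. It turned the median log2 ratio of the surface genes to 0.46 for galactose over freshly isolated, 0.52 for low glucose over freshly isolated and 0.40 for high glucose over freshly isolated, Itga7 to 0.71 and Dag1 to 0.082 for high glucose over freshly isolated, and Dag1 to 0.20 for low glucose over freshly isolated. It also turned Itga7 to 0.83 for low glucose over freshly isolated and to 1.01 for galactose over freshly isolated, from -0.52 and -0.39, neither of which was past the limit. It gave 4 genes higher and 2 lower in each of these 3 comparisons. It gave 1 lower gene for low glucose over high glucose (median -0.29) and 1 lower for galactose over high glucose. TMM gave 1 higher gene for high glucose over freshly isolated, as did median-of-ratios factors, and 1 higher for galactose over high glucose. With no CPM minimum there was 1 lower gene for galactose over low glucose, 2 higher and 1 lower for low glucose over high glucose, and 1 higher and 1 lower for galactose over high glucose; the added genes rest on few counts. A minimum of 10 CPM gave 1 higher for low glucose over high glucose and a median of -1.47 for galactose over freshly isolated. Low glucose over freshly isolated had 2 higher genes with at least 2000 counts per well, and 2 without wells with counts of at least 3 markers of 1 other cell type. The cause of these shifts was not tested beyond the change each setting makes.

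Leaving out 1 plate row at a time gave, for galactose over freshly isolated, medians of -1.04 to -0.49, 1 to 2 higher and 3 to 4 lower genes. Low glucose over freshly isolated gave medians of -0.96 to -0.62, 1 to 2 higher and 4 to 5 lower, and high glucose over freshly isolated -1.32 to -0.84, 2 to 3 higher and 4 to 5 lower. Galactose over high glucose gave 0 to 1 higher. The lower count was 4 for high glucose over freshly isolated where Cdh15 fell under the minimum. The mean number of genes with a count per cell, in the order galactose, low glucose, high glucose and freshly isolated, was 2.02, 2.14, 2.04 and 3.07 at 2000 counts per cell and 5.78, 5.64, 4.14 and 3.58 without thinning. All other settings left counts within 1.5 times and the direction as reported.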
